A study of Arabidopsis thaliana with 12 samples.

Results

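The comparison described here is that of roots overexpressing MYB2 with wild-type roots of Arabidopsis thaliana, and its members are all genes in the authors' deposited table for that pair. That table holds 1271 of the 2424 genes found in any table of the series, and its 6 libraries are among the 12 of the study. MYB2-OE is a line that carries MYB2 under the viral 35S promoter (Pro35S:MYB2), which drives transcription in most plant cells, and Col is the Col-0 wild type without a transgene. Both were measured in roots of 8-day-old seedlings raised on 1/2 MS salt medium in darkness, with 3 libraries each. The series also holds a line overexpressing LBD29 and a line with MYB2 fused to the SRDX repression domain. Nothing in the labels says whether the 3 libraries of a genotype came from separate cultures, or whether the line stands for more than 1 transformation event, so spreads given below may be technical. RNA was taken from whole roots, so fewer cells of a type and less RNA per cell cannot be told apart.

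MYB2 is an R2R3 MYB transcription factor, a family that binds DNA through a pair of MYB repeats. In Arabidopsis it is known as a regulator induced by drought, salt and abscisic acid, and it was described as binding to the sequence TAACTG. Values below are FPKM (fragments scaled to transcript length and library size), given for libraries 1, 2 and 3 of each genotype in that order. Folds are log2 ratios of MYB2-OE over Col group means after adding 0.1 FPKM, which understates the fold of genes near 0. The sequencing depth behind these values is unknown, so no counting interval is given.

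The transgene was read first. MYB2 (AT2G47190, chr2:19375985-19377543 in the TAIR10.1 annotation) measured 636, 375 and 585 FPKM in MYB2-OE, against 1.01, 0.48 and 0.59 FPKM in Col. The 2 ranges are far apart, and library 2 was the lowest of the line. The log2 fold was 9.39, and 9.59 without library 2. The transgene was thus high in every library labelled MYB2-OE and low in every library labelled Col.

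Library 2 of MYB2-OE stood apart from its partners across the table. On log2(FPKM + 1), libraries 1 and 3 correlated at 0.988 across the listed genes, whereas library 2 correlated with them at 0.947 and 0.953 (a description across 1271 genes that were selected for differing from Col). Library 2 correlated with the Col libraries at 0.869 to 0.874, while libraries 1 and 3 did so at 0.748 to 0.757, and the Col libraries correlated with each other at 0.985 to 0.991. Its position was expressed per gene on a scale where 1 is the mean of libraries 1 and 3 and 0 is the Col mean, for genes whose libraries 1 and 3 differed from Col by at least 1 on the log2 scale. Among 359 such genes listed as higher the median position was 0.766, and among 367 listed as lower it was 0.548. Library 2 lay between the Col mean and the mean of libraries 1 and 3 for 94.2% of the higher and 94.0% of the lower genes. These genes were chosen on libraries 1 and 3, which by itself can place library 2 nearer to Col. The same position was not computed for libraries 1 and 3. On linear FPKM the medians were 0.636 for higher and 0.681 for lower genes, so the difference between the directions on the log scale turned the other way. The leading results below are therefore given with and without this library.

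**Figure D1:**
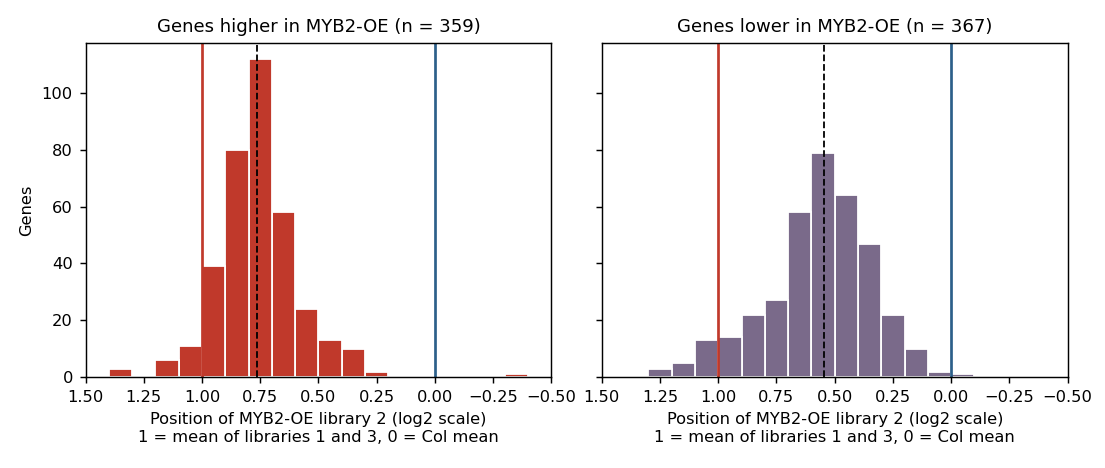
Position of MYB2-OE library 2 between the mean of libraries 1 and 3 (at 1, left line) and the Col mean (at 0, right line) on log2(FPKM + 1), for 359 genes higher and 367 genes lower in MYB2-OE; bars count genes and the dashed line is the median. The medians sit at 0.766 for higher and 0.548 for lower genes, and nearly all genes lie between the lines.

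A small set of genes did the opposite and stood high in library 2 only. With 1 FPKM added, library 2 was at least 2-fold above both partner libraries, and above every Col library, for 8 listed genes. All 8 fell under 2-fold once library 2 was left out. Genes near 0 can miss this count, as AGL29 below did. LBD29, a LOB-domain factor needed for forming lateral roots, measured 1.82, 109 and 1.93 FPKM in MYB2-OE, against 3.08, 2.55 and 3.04 FPKM in Col. LBD16, its close relative in the same process, measured 5.69, 135 and 5.72 FPKM in MYB2-OE, against 3.95, 4.02 and 4.33 FPKM in Col. For both genes, libraries 1 and 3 were close to Col or below it, and the log2 folds of 3.66 and 3.54 became -0.60 and 0.47 without library 2. The cutinase gene CDEF1 measured 28.8, 196 and 34 FPKM in MYB2-OE, against 30.7, 26.7 and 22.9 FPKM in Col. The other 5 were the methyl esterase gene MES17, the cytochrome P450 gene CYP71B5, AT3G22060, AT3G07620 and AT5G05735. The authors' deposited table also gives the log2 fold of the LBD29-overexpressing line over Col. It was 7.56 for LBD29, 3.41 for CDEF1, 2.88 for MES17 and 3.98 for CYP71B5. For AT3G22060, AT3G07620 and LBD16 it was 1.92, 1.89 and -0.20, and AT5G05735 had no value. LBD16 thus stood high in library 2 of MYB2-OE and at about the Col level in the LBD29-overexpressing line. Their part in the other values of library 2 was not tested. Besides LBD29 and CYP71B5 (log2 -0.97), NIG1 turned to log2 -0.32 without library 2, and the MADS-box gene AGL29, whose only value above 0 was 0.66 FPKM in library 2, turned to 0. All of them stay in the counts over the table and are named where a list holds them.

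The authors called 666 genes higher (52.4% of the 1271) and 605 lower (47.6%) in MYB2-OE. By the library FPKM, 600 genes were at least 2-fold higher (47.2%) and 547 at least 2-fold lower (43.0%). Every MYB2-OE library lay above every Col library for 624 genes (49.1%) and below for 541 (42.6%), which is 93.7% of the genes listed as higher and 89.4% of those listed as lower. Library 2 was the lowest of the line in 73% of the higher genes and the highest in 79.3% of the lower genes. Counts of either kind in the groups below are read against these shares. With limma on log2(FPKM + 1), 630 listed genes were higher (49.6%) and 576 lower (45.3%) at a Benjamini-Hochberg adjusted p under 0.05. These genes had already been chosen on the same libraries, so the limma counts describe how evenly the libraries moved and are no second test. For a single gene, 3 libraries against 3 cannot go below an exact two-sided permutation p of 0.10. Without library 2 the 2-fold counts were 610 higher and 570 lower, and 575 and 536 of the genes were shared with the counts over all libraries. The median log2 fold was 1.38 over the higher genes, and 1.47 without library 2. Over the lower genes it was -1.33, and -1.59 without library 2. At the far end, 10 genes were at least 8-fold lower over all libraries and 50 without library 2, while the 8-fold rises numbered 68 and 79. In a mean of FPKM the highest library weighs most, so leaving out library 2 moves falls and rises unequally. The 2 directions are therefore not compared on these shifts. Genes near 0 are part of the table, with 296 genes under 1 FPKM in both group means, 42 at 0 in every Col library and 11 at 0 in every MYB2-OE library.

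The listed genes also summed to a lower FPKM in the line. Their summed FPKM was 26798 in library 1, 34489 in library 2 and 26554 in library 3 of MYB2-OE, against 49540 in library 1, 47582 in library 2 and 49400 in library 3 of Col. Part of the gap lay in a few very abundant root genes that fell. PYK10, the main beta-glucosidase of the root's ER bodies, measured 2859.9, 5774 and 3096 FPKM in MYB2-OE, against 10810.2, 10216 and 9615 FPKM in Col. DR4, known as a drought-repressed gene, measured 406, 1160.5 and 303 FPKM in MYB2-OE, against 2892, 2733 and 3274 FPKM in Col (log2 -2.25, and -3.06 without library 2). MLP34, a major latex protein-like gene, measured 757, 1377 and 678 FPKM in MYB2-OE, against 2875, 2665 and 3306 FPKM in Col. In these 3 genes library 2 lay between the other libraries of the line and Col, and the groups did not overlap.

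Sequences before the gene starts were examined for the MYB2 recognition sequence. The 250 bases before the annotated start of each nuclear protein-coding gene were read from TAIR10.1 and searched for TAACTG on either strand. It occurred in 44 of 654 windows of genes listed as higher (6.7%), in 43 of 605 of genes listed as lower (7.1%) and in 2227 of all 27443 windows (8.1%). Among the 61 genes named by rank, level, family or the position of library 2, it was in 2, EXPB3 and PYK10, both lower in MYB2-OE. It was in 1 of the 11 listed aliphatic and 2 of the 8 listed indole glucosinolate genes described below. Their windows are shown with those of HOL2 and PSK2, which after MYB2 head the ranked rises among genes with a symbol and have no match, so that the windows of strongly moved genes can be compared. Capitals mark TAACTG, on the gene's own strand in both cases, and a missing match says only that these letters are not in this window. The windows lie at chr2:18191349-18191598, minus strand (HOL2), chr2:9737333-9737582, plus strand (PSK2), chr4:14002125-14002374, minus strand (EXPB3) and chr3:2843782-2844031, minus strand (PYK10). In EXPB3 the match begins 92 bases before the start, and in PYK10 243 bases before it.
HOL2: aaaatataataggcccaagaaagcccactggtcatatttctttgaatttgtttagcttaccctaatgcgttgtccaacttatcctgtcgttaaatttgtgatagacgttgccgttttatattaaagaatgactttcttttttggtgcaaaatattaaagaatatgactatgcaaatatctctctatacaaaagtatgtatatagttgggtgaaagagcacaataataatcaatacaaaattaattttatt
PSK2: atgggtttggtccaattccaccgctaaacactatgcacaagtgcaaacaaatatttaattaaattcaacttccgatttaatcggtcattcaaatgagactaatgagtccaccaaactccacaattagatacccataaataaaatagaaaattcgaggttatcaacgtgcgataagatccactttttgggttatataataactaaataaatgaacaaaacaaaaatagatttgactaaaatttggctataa
EXPB3: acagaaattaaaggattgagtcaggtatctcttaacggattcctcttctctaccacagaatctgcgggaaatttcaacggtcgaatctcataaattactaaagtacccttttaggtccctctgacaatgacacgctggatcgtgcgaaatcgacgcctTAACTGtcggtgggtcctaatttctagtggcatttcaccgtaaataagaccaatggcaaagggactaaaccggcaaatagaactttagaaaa
PYK10: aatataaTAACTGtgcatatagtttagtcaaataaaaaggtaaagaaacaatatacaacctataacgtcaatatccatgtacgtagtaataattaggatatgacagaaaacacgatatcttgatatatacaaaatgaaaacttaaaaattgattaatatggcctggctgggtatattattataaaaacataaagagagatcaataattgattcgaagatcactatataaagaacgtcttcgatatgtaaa

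The largest rises were ranked among genes with a symbol, a group mean of at least 5 FPKM and groups that did not overlap. HOL2 (AT2G43920), a methyltransferase gene of the HARMLESS TO OZONE LAYER family, measured 68.3, 54 and 84 FPKM in MYB2-OE, against 0.56, 0.7 and 1.21 FPKM in Col (log2 6.22, and 6.37 without library 2). PSK2 (AT2G22860), the precursor of the growth peptide phytosulfokine, measured 177, 139 and 206 FPKM in MYB2-OE, against 6.4, 3.28 and 3.5 FPKM in Col (log2 5.28, and 5.41 without library 2). Neither gene had a MYB2-OE library anywhere near a Col library. The leucine zipper factor gene bZIP58 measured 60.8, 33.9 and 50.4 FPKM in MYB2-OE, against 2.2, 3.09 and 2.58 FPKM in Col, and the glutathione transferase gene GSTU4 measured 53.3, 24.9 and 37 FPKM in MYB2-OE, against 1.88, 1.73 and 2.78 FPKM in Col. OSM34, the osmotin gene known from salt and drought responses, measured 310.1, 246 and 484 FPKM in MYB2-OE, against 37.2, 51.4 and 59.4 FPKM in Col and was the most abundant of the 15 after MYB2. The others were ACA1 (alpha carbonic anhydrase 1, AT3G52720), BGLU24 (a beta-glucosidase), OCT1 (a carnitine transporter), CHUP1 (chloroplast positioning) and 4 genes otherwise known from flowers or seeds, described next. LBD16 also met the rank rule, on library 2 alone.

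Genes otherwise known from floral or seed tissue stood among these rises. MYB24, an R2R3 MYB of stamen development downstream of jasmonate, measured 17.43, 7 and 9.95 FPKM in MYB2-OE, against 0, 0 and 0 FPKM in Col. RGE1, also called ZHOUPI, a basic helix-loop-helix factor of the endosperm, measured 7.07, 4.74 and 5.13 FPKM in MYB2-OE, against 0.04, 0 and 0 FPKM in Col. HSD1, a steroleosin of seed oil bodies, measured 6.8, 6.27 and 10.9 FPKM in MYB2-OE, against 0.28, 0.24 and 0.03 FPKM in Col, though a near-identical copy of it in the genome makes its value uncertain. E12A11, also called MOTHER OF FT AND TFL1, a regulator of seed germination, was already present in Col and measured 61, 39.4 and 52.5 FPKM in MYB2-OE, against 8.11, 6.93 and 5.74 FPKM in Col. In all 4 genes the groups did not overlap, and without library 2 the log2 folds of the last 3 were 5.77, 4.98 and 3.02. MYB24 was listed at 0 in every Col library, so no fold is given for it. None of the 19 genes of the seed storage list was in the table, so a broader set of seed genes was not listed with them. Genes without a symbol were outside the ranking, and those named here were chosen after their values were seen. AT2G04910, annotated as a carbohydrate-binding X8 domain protein, measured 150.01, 85.3 and 129 FPKM in MYB2-OE, against 0, 0 and 0.17 FPKM in Col. AT5G54400, a methyltransferase family gene, measured 68.6, 36.4 and 58.6 FPKM in MYB2-OE, against 0.88, 0.4 and 0.4 FPKM in Col. AT5G53486, a transmembrane protein gene, measured 28.2, 13.8 and 25.9 FPKM in MYB2-OE, against 0, 0 and 0 FPKM in Col.

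**Figure D2:**
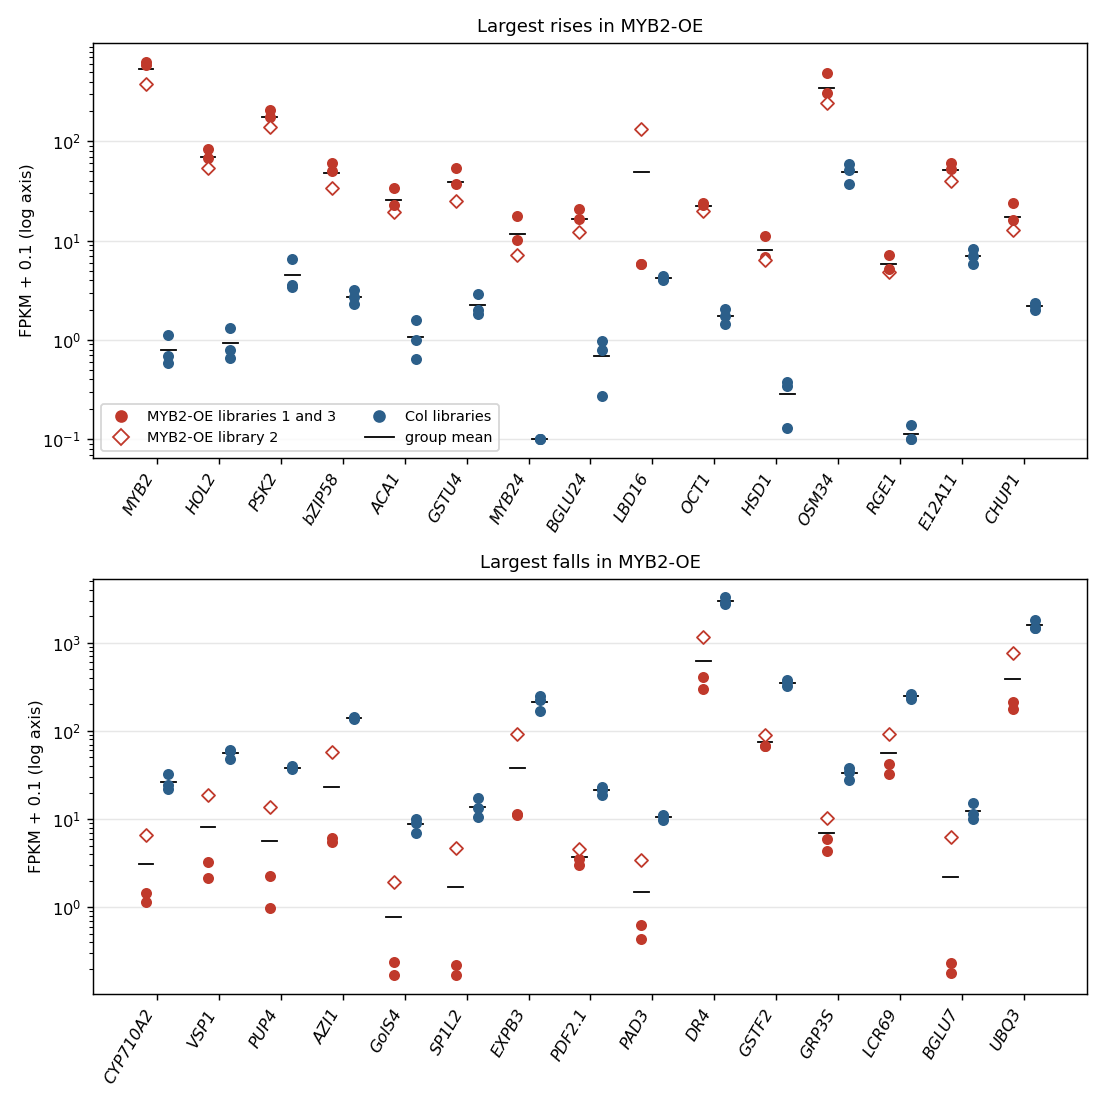
FPKM + 0.1 on a log axis for the 15 largest rises (top) and the 15 largest falls (bottom), with MYB2-OE libraries left of Col libraries for each gene, an open diamond for MYB2-OE library 2 and a line at each group mean. Library 2 is the lowest library of the line in 14 of the 15 rises, LBD16 being the exception, and the highest in 15 of the 15 falls.

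In all 15 of the largest falls library 2 was the highest library of the line, as in 79.3% of all lower genes. CYP710A2, a sterol desaturase that makes stigmasterol, measured 1.35, 6.54 and 1.06 FPKM in MYB2-OE, against 32.5, 24.2 and 21.6 FPKM in Col (log2 -3.09, and -4.33 without library 2). SP1L2, a SPIRAL1-like microtubule gene, measured 0.07, 4.58 and 0.12 FPKM in MYB2-OE, against 13.3, 17.1 and 10.4 FPKM in Col (log2 -3.02, and -6.13 without library 2). BGLU7, a beta-glucosidase gene, measured 0.08, 6.15 and 0.13 FPKM in MYB2-OE, against 11.4, 15.1 and 10.03 FPKM in Col (log2 -2.47, and -5.90 without library 2). Libraries 1 and 3 had nearly lost the last 2 genes, while library 2 kept them at a level under that of Col. GolS4, a galactinol synthase gene, measured 0.14, 1.83 and 0.07 FPKM in MYB2-OE, against 8.89, 10.01 and 6.89 FPKM in Col (log2 -3.48, and -5.41 without library 2), and the purine permease gene PUP4 measured 0.89, 13.7 and 2.16 FPKM in MYB2-OE, against 40.0, 36.9 and 37.9 FPKM in Col (log2 -2.75, and -4.56 without library 2). GSTF2, a glutathione transferase gene, and the defensin gene PDF2.1 were even across the line, with 66.6, 89.2 and 67.6 and 3.45, 4.48 and 2.88 FPKM in MYB2-OE, against 378, 319.6 and 356 and 18.9, 23.1 and 21.4 FPKM in Col, so their folds hardly moved without library 2 (log2 -2.39 and -2.70). UBQ3, a polyubiquitin gene, measured 176, 772 and 213 FPKM in MYB2-OE, against 1484, 1469 and 1838 FPKM in Col (log2 -2.05, and -3.04 without library 2), but it shares sequence with other polyubiquitin genes and its value is uncertain. All 30 ranked rises and falls had groups that did not overlap, which the ranking itself required.

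Glucosinolates are sulfur-rich defence compounds of the cabbage family, made along a methionine-derived (aliphatic) branch and a tryptophan-derived (indole) branch, and activated by beta-glucosidases called myrosinases. The 2 branches moved in opposite directions in MYB2-OE. Of 21 aliphatic branch genes, 11 were listed as higher and 0 as lower (median log2 1.70 in the authors' deposited table, where the median over all higher genes was 1.64). Of 15 indole branch genes, 0 were higher and 8 lower (median log2 -1.22, where the median over all lower genes was -1.45). Both lists were grouped after their values had been seen, so these counts describe and are no test, and they read against the shares of 52.4% higher and 47.6% lower in the whole table.

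In the aliphatic branch the enzymes of chain elongation and core synthesis rose together. BCAT4, the aminotransferase that opens chain elongation, measured 66.6, 38.6 and 60.9 FPKM in MYB2-OE, against 14.4, 10.3 and 4.94 FPKM in Col (log2 2.47, and 2.68 without library 2). MAM1, the synthase that adds the extra carbon, measured 30.6, 20.0 and 31.9 FPKM in MYB2-OE, against 7.04, 6.64 and 4.32 FPKM in Col (log2 2.18, and 2.36 without library 2). CYP83A1, a cytochrome P450 of the core pathway, measured 56.6, 34.5 and 54.5 FPKM in MYB2-OE, against 16.7, 9.8 and 4.81 FPKM in Col (log2 2.21). For these 3 genes the lowest MYB2-OE library was well over the highest Col library. The isomerase genes IPMI1 and IPMI2 measured 51, 26.6 and 46.3 FPKM and 72.5, 36.7 and 67.6 FPKM in MYB2-OE, against 27.7, 17.9 and 11.9 FPKM and 26.9, 16 and 9.54 FPKM in Col. IPMI1 overlapped, since its library 2 lay under Col library 1. IMD1 and IMS2, further enzymes of the elongation cycle, measured 133, 81.6 and 116 and 104, 68.8 and 107 FPKM in MYB2-OE, against 56.7, 43.1 and 29 and 32.8, 25.8 and 18.9 FPKM in Col. CYP79F2, BAT5 (a plastid transporter), GSTF11 and AT1G65860 (an S-oxygenase) were higher too, at log2 1.36, 1.14, 1.60 and 1.26. All 11 genes had library 2 as the lowest of the line. They also shared a pattern within Col, where library 1 was the highest and library 3 the lowest in all 11, with CYP83A1 spanning 16.7 and 4.81 FPKM, so these wild-type libraries differed by more than 3-fold in a gene of the same genotype. BCAT4, MAM1 and CYP83A1 stayed at least 2-fold higher when any 1 library was left out. AT1G65860 and IPMI1 stood at log2 0.90 and 0.92 without MYB2-OE library 1, and BAT5 and IPMI1 at 0.97 and 0.85 without Col library 3.

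The indole branch fell, with its regulator and its side-chain enzymes. MYB34, the R2R3 MYB that regulates indole glucosinolate genes, measured 41.6, 60.9 and 39 FPKM in MYB2-OE, against 111, 118 and 104 FPKM in Col (log2 -1.23, and -1.46 without library 2). CYP79B2, which turns tryptophan into the oxime at the branch point to camalexin and auxin, measured 55.9, 82.6 and 61.2 FPKM in MYB2-OE, against 146, 151 and 112 FPKM in Col. CYP81F4, a side-chain hydroxylase and one of the most abundant lower genes, measured 398, 705 and 342 FPKM in MYB2-OE, against 1727, 1553 and 1520.1 FPKM in Col (log2 -1.73, and -2.11 without library 2). The groups did not overlap in any of the 8 genes, and library 2 was the highest of the line in 6 of them, beside 89.4% and 79.3% of all lower genes. The O-methyltransferase genes IGMT1, IGMT3, IGMT4 and IGMT5 were lower at log2 -1.43, -1.12, -1.75 and -1.21, but the first 3 are similar neighbours whose reads could be split in counting. CYP79B2 lay between log2 -0.98 and -0.92 without MYB2-OE library 1 or 3 or Col library 1 or 2, and IGMT3 at -0.93 without MYB2-OE library 3. CYP81F2, the least abundant of the 8, measured 1.46, 1.68 and 1.66 FPKM in MYB2-OE, against 2.18, 4.14 and 4.25 FPKM in Col. Its log2 fold of -1.09 became -0.96 and -0.94 without Col library 2 and 3. PAD3, which makes the last step of the indole phytoalexin camalexin, measured 0.34, 3.29 and 0.53 FPKM in MYB2-OE, against 10.6, 9.75 and 10.9 FPKM in Col (log2 -2.82, and -4.30 without library 2), and CYP71A12 of the same route measured 0.19, 0.48 and 0.67 FPKM in MYB2-OE, against 0.83, 2.39 and 2.78 FPKM in Col. With them, the 31-gene list of camalexin and indole glucosinolate genes had 0 higher and 10 lower members, all 10 at least 2-fold lower with and without library 2.

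Listed genes of the system that activates these compounds in roots fell with the indole branch. Of 25 genes of the ER body and myrosinase system, a list grouped after its values were seen, 0 were higher and 9 lower. Beside PYK10 (log2 -1.39, and -1.78 without library 2), its partner lectin genes PBP1, JAL22, JAL31 and JAL33 measured 822 ± 159, 131 ± 79.5, 100.64 ± 31.3 and 406 ± 189 FPKM in MYB2-OE, against 1661 ± 73.4, 400.4 ± 16.8, 206 ± 9.85 and 849 ± 14.9 FPKM in Col (SD, n = 3 each). These jacalin-type lectins are known to assemble with PYK10 once cells break. NSP1, a nitrile specifier protein that diverts glucosinolate breakdown, measured 267, 537 and 233 FPKM in MYB2-OE, against 1198, 1073 and 977 FPKM in Col. The groups did not overlap in any of the 9 genes, and library 2 was the highest of the line in all 9, beside 89.4% and 79.3% of all lower genes. TSA1 and BGLU18, known from ER bodies of shoots, were also lower, at 0.16, 0.75 and 0.22 and 0, 0.12 and 0.05 FPKM in MYB2-OE, against 1.99, 1.97 and 1.6 and 0.23, 0.2 and 0.14 FPKM in Col. Without MYB2-OE library 1 or 3, JAL31, JAL33 and PBP1 stood at log2 -0.95 to -0.87, PBP1 at -0.98 without Col library 1, and BGLU18 at -0.89 over all libraries. Without library 2, JAL22 and TSA1 stood at -2.23 and -2.75, beyond their -1.61 and -2.03 over all libraries.

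**Figure D3:**
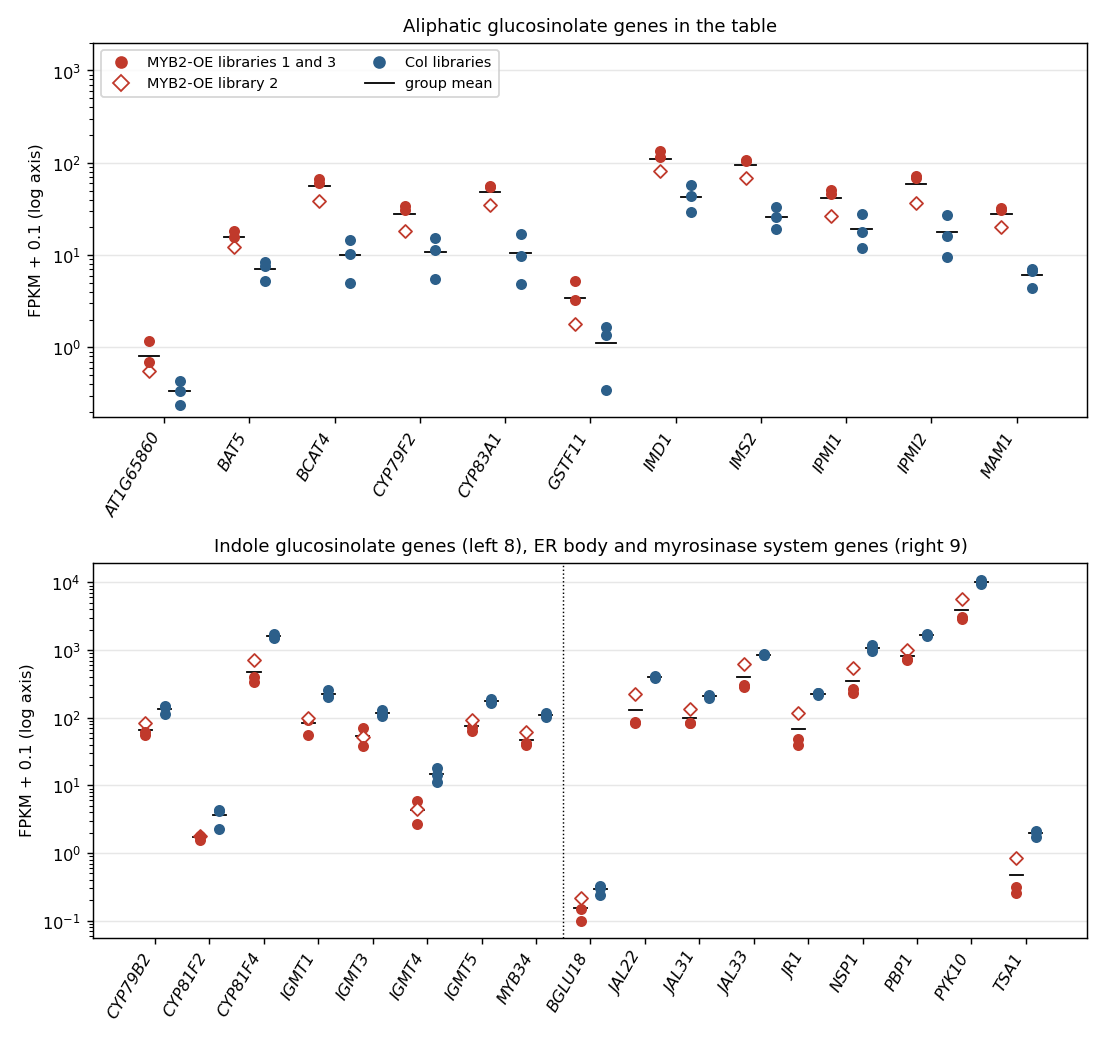
FPKM + 0.1 on a log axis for the 11 listed aliphatic glucosinolate genes (top) and for the 8 listed indole glucosinolate genes and 9 listed ER body and myrosinase system genes (bottom), MYB2-OE left of Col, with an open diamond for MYB2-OE library 2 and a line at each group mean. Aliphatic genes lie higher in MYB2-OE, with library 2 nearest to Col, and indole and ER body genes lie lower.

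Other abundant small proteins of the root fell as well. Of 19 latex-like (MLP), glycine-rich and defensin-like genes, grouped after their values were seen, 0 were higher and 8 lower, with library 2 the highest of the line in all 8. MLP328 measured 433, 660.1 and 348 FPKM in MYB2-OE, against 1647, 1462 and 1686 FPKM in Col. The defensin-like gene LCR69 measured 32, 93.4 and 41.5 FPKM in MYB2-OE, against 248, 229 and 266 FPKM in Col (log2 -2.15, and -2.75 without library 2). Immunity genes of the azelaic and salicylic acid routes had 0 higher and 5 lower members of 30. AZI1, a gene of the lipid transfer type with a role in systemic immunity, and its relative EARLI1 measured 5.4, 57 and 6.02 and 2.37, 32.2 and 3.72 FPKM in MYB2-OE, against 139, 143 and 138 and 42.1, 43.7 and 40.3 FPKM in Col, with library 2 far above its partners in both. Their log2 folds were -2.61 and -1.71, and -4.59 and -3.74 without library 2. FMO1, WRKY38 and CBP60G were under 1.5 FPKM in every library, and FMO1 stood at log2 -0.88 without Col library 2. CBP60G stood at log2 -0.84 over all libraries, with overlapping groups. In the jasmonate list of 40 genes, 2 were higher (MYB24 and ERF1) and 4 lower, of which VSP2 measured 0.17, 3.67 and 0.1 FPKM in MYB2-OE, against 5.35, 4.64 and 3.73 FPKM in Col (log2 -1.73, and -4.31 without library 2) and JAZ5, a repressor of the pathway, 0.74, 0.4 and 0.6 FPKM in MYB2-OE, against 1.35, 1.34 and 1.37 FPKM in Col. LOX3 was listed as lower but stood at 0.08, 0 and 0 FPKM in MYB2-OE and 0.14, 0.17 and 0.06 FPKM in Col, with overlapping groups. Without library 2 JAZ5 stood at log2 -0.92. In the other direction, secreted defence proteins were among the most abundant higher genes. The peroxidase gene AT5G64120 measured 1339, 1352 and 1696 FPKM in MYB2-OE, against 225, 318 and 365 FPKM in Col, the beta-glucanase family gene AT4G16260 684, 426 and 868 FPKM in MYB2-OE, against 185, 184 and 215 FPKM in Col and PR4, a chitin-binding protein, 361, 250.5 and 462 FPKM in MYB2-OE, against 168, 172 and 156 FPKM in Col. All 3 stood clear of Col in every library, though PR4 stood at log2 0.89 without MYB2-OE library 3.

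Genes of specialised triterpenes were split too. Of 37 triterpene and sterol genes, 2 were higher and 8 lower. The thalianol gene cluster on chromosome 5 fell at its synthase THAS1 and at 2 modifying enzymes. THAS1 measured 35.4, 52.7 and 28.6 FPKM in MYB2-OE, against 100.7, 90.4 and 117 FPKM in Col, CYP708A2 measured 54.9, 71.3 and 40.7 FPKM in MYB2-OE, against 143, 134 and 148 FPKM in Col, and CYP705A5 measured 118, 152 and 98.4 FPKM in MYB2-OE, against 272, 228 and 273 FPKM in Col. In contrast MRN1, the marneral synthase of another root triterpene cluster, measured 68.5, 54.5 and 44.2 FPKM in MYB2-OE, against 23.7, 16 and 18.6 FPKM in Col. No library of the line overlapped Col in any of these 4 genes, and their log2 folds without library 2 were -1.68, -1.57, -1.25 and 1.53. CYP705A5 stood at -0.94 without MYB2-OE library 3. In the phenylpropanoid list of 41 genes, 1 was higher and 2 lower, with chalcone isomerase (CHI) at 50.0, 68.6 and 43.6 FPKM in MYB2-OE, against 136, 126 and 133 FPKM in Col.

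A group of genes for the procambium and cambium, the dividing tissue between xylem and phloem, was lower wherever its members were listed. The group also holds the phloem protein gene SEOR1. Of its 20 genes, grouped after their values were seen, 0 were higher and 10 lower, where 47.6% of all listed genes were lower. Their median log2 was -1.49 in the authors' deposited table, where the median over all lower genes was -1.45. PXY, the receptor kinase that maintains the cambium, measured 5.29, 10.1 and 5.79 FPKM in MYB2-OE, against 16.2, 17.1 and 16.2 FPKM in Col (log2 -1.21, and -1.56 without library 2). WOX4, the homeobox gene it acts through, measured 0.66, 2.1 and 0.63 FPKM in MYB2-OE, against 4.88, 5.2 and 2.97 FPKM in Col (log2 -1.85, and -2.58 without library 2). ANT, an AP2 factor that promotes cambial growth, measured 1.42, 3.52 and 1.38 FPKM in MYB2-OE, against 8.37, 8.9 and 8.01 FPKM in Col (log2 -1.95, and -2.51 without library 2). LBD4, a boundary factor of the vascular cylinder, measured 2.29, 5.79 and 1.63 FPKM in MYB2-OE, against 10.3, 11.1 and 12 FPKM in Col (log2 -1.75, and -2.45 without library 2). In each of them library 2 lay between libraries 1 and 3 and the Col libraries, and the groups did not overlap in any of the 10, beside 89.4% of all lower genes. HCA2, ASL9, PIN6, AT1G68810, the thermospermine synthase gene ACL5 and the phloem protein gene SEOR1 completed the list at log2 -1.24, -2.02, -1.38, -1.06, -1.18 and -1.09. Without library 2, ASL9 and PIN6 stood at -2.61 and -2.75. The longer list of 33 xylem and vascular markers had 1 higher and 4 lower members, the lower ones all from the set above, with the vessel factor VND1 as the higher one (2.18, 1.62 and 1.79 FPKM in MYB2-OE, against 0.53, 1.2 and 0.73 FPKM in Col). Some of these folds lay near 2-fold: ACL5, AT1G68810 and SEOR1 stood at log2 -0.99, -0.98 and -0.84 without MYB2-OE library 1, PIN6 at -0.97 without library 3, and VND1 at 0.88 without Col library 1. XND1, a NAC factor known to hold back vessel differentiation, was higher at 8.87, 5.97 and 6.56 FPKM in MYB2-OE, against 1.9, 1.93 and 1.53 FPKM in Col.

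**Figure D4:**
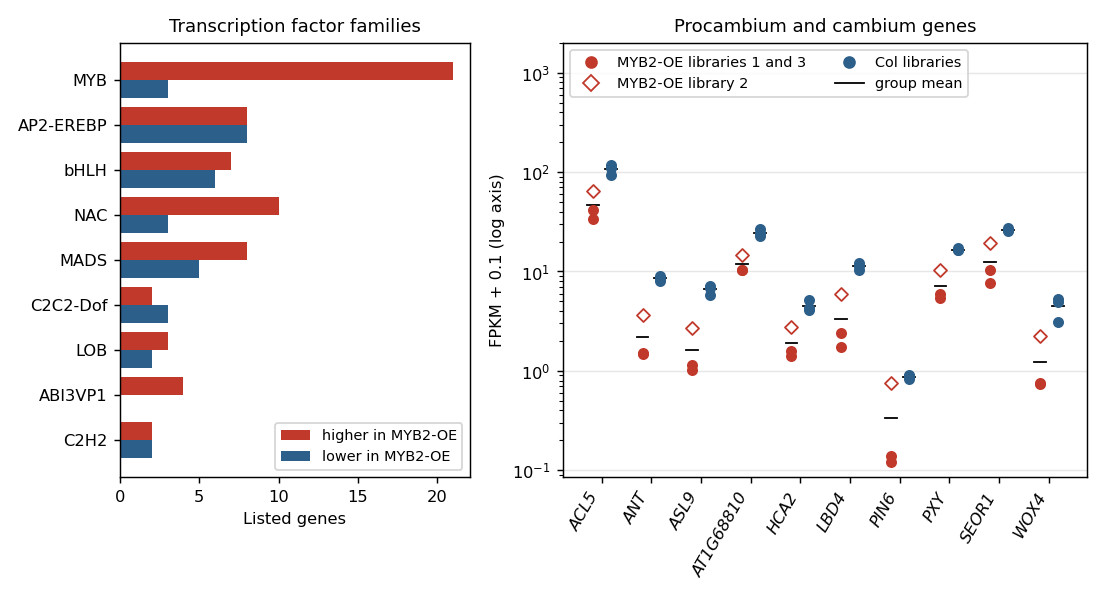
Left, numbers of listed transcription factors higher and lower in MYB2-OE for families with at least 4 listed genes. Right, FPKM + 0.1 on a log axis for the 10 listed procambium and cambium genes, MYB2-OE left of Col, with an open diamond for MYB2-OE library 2 and a line at each group mean. The MYB family has 21 higher and 3 lower genes, and in all 10 genes on the right library 2 is the MYB2-OE library nearest to Col.

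Of 132 transcription factors with a family in the authors' annotation, 87 were higher and 45 lower in MYB2-OE, beside 52.4% higher over all listed genes. No test is given for this count. The MYB family, to which MYB2 itself belongs, had 21 higher and 3 lower of 24. MYB115 (AT5G40360, chr5:16144792-16146671) lies beside MYB24 (chr5:16138544-16141134) on chromosome 5, and measured 0.68, 0.53 and 0.45 FPKM in MYB2-OE, against 0, 0 and 0 FPKM in Col. TCL1, ETC1 and CPL3 are single-repeat MYBs that hold back trichome fate or promote root hair fate. Of a group of 7 such genes, made after its values were seen, these 3 were higher and 0 lower. TCL1 measured 6.57, 2.95 and 4.36 FPKM in MYB2-OE, against 0, 0 and 0.08 FPKM in Col, ETC1 7.8, 3.64 and 6.07 FPKM in MYB2-OE, against 2.77, 2.52 and 2.3 FPKM in Col and CPL3 4.87, 3.34 and 7.22 FPKM in MYB2-OE, against 2.59, 2.81 and 1.53 FPKM in Col. TCL1 was at or near 0 in Col and low in the line. ETC1 stood at log2 0.91 without MYB2-OE library 1, and CPL3 at 0.80 without library 3. MYB41 and MYB49, the 2 listed genes of the 36-gene suberin and endodermis list, measured 13.8, 12.3 and 11.4 and 38.4, 30.5 and 38.7 FPKM in MYB2-OE, against 5.59, 6.05 and 6.17 and 16.6, 17.3 and 18.3 FPKM in Col. MYB41 is known to activate suberin synthesis, but none of the enzyme genes of that list was in the table. Without MYB2-OE library 1 both stood at log2 0.99. MYB56 and MYB6 were among the more abundant, at 32.9, 22.7 and 29.6 and 28.4, 21.9 and 24.2 FPKM in MYB2-OE, against 11.4, 10.6 and 10.2 and 9.67, 10.2 and 11.4 FPKM in Col. The 3 lower ones were MYB34, MYB10 and AT5G56840.

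In the NAC family 10 genes were higher and 3 lower of 13. NAC6, also known as ORE1, measured 18, 14.7 and 18.7 FPKM in MYB2-OE, against 3.21, 3.86 and 6.63 FPKM in Col. With NAC047 (17.78, 14.6 and 15.2 FPKM in MYB2-OE, against 5.45, 5.11 and 7.46 FPKM in Col) and NAP (2.31, 2.55 and 3.21 FPKM in MYB2-OE, against 0.88, 1.13 and 0.98 FPKM in Col) it belongs to the NAC factors known to promote leaf senescence, a group of 10 made after its values were seen, of which 3 were higher and 0 lower. These 3 genes had library 2 within or close to the range of its partners. The MADS family had 8 higher and 5 lower of 13, AGL29 with its single value in library 2 among the higher ones, and 7 of the 13 reached 1 FPKM in a group mean. AGL21, a regulator of lateral root growth, was by far the most abundant at 79.6, 52.2 and 61.5 FPKM in MYB2-OE, against 19.2, 21.5 and 23.9 FPKM in Col, and AGL44 (ANR1), the nitrate-related root factor of the same clade, measured 2.05, 0.83 and 0.83 FPKM in MYB2-OE, against 0.04, 0.13 and 0.22 FPKM in Col. FLC and MAF5, repressors of flowering, and AGL20 (SOC1), which FLC holds back, were all lower, at log2 -1.30, -1.65 and -1.21. The AP2-EREBP family was even at 8 higher and 8 lower. ERF1, an ethylene and jasmonate integrator, measured 2.81, 1.9 and 3.07 FPKM in MYB2-OE, against 0.44, 0.63 and 0.48 FPKM in Col, and TINY measured 21.2, 28.9 and 25.8 FPKM in MYB2-OE, against 59.4, 59.4 and 71 FPKM in Col. The basic helix-loop-helix family had 7 higher, NIG1 among them (log2 1.26, and -0.32 without library 2), and 6 lower, with the root hair factor LRL1 at 119, 110.2 and 134 FPKM in MYB2-OE, against 50.8, 53.8 and 58.4 FPKM in Col. WRKY28 measured 6.64, 5 and 5.83 FPKM in MYB2-OE, against 0.36, 0.26 and 0.32 FPKM in Col, and the leucine zipper factor gene BZIP9 measured 36.8, 49.6 and 31.4 FPKM in MYB2-OE, against 67.3, 84.3 and 92.2 FPKM in Col, which gave log2 -0.91 without MYB2-OE library 3. The B3 (ABI3VP1) family had 4 higher and 0 lower, all under 2 FPKM.

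**Figure D5:**
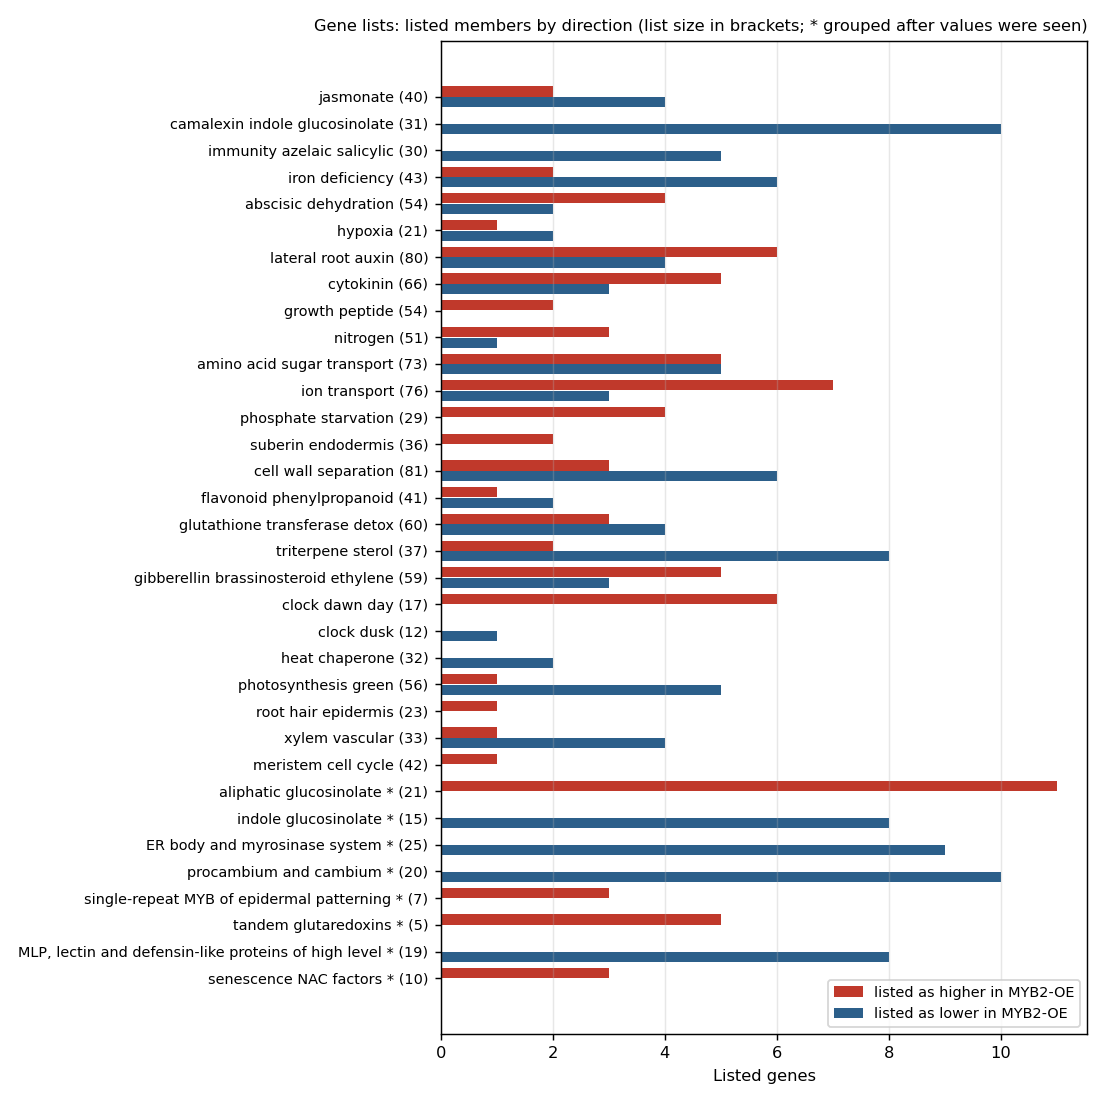
Numbers of genes listed as higher and lower in MYB2-OE in each gene list with at least 1 listed member; the list size stands in brackets and a star marks lists grouped after the values were seen. The camalexin and indole list has 10 lower and 0 higher genes, and the aliphatic glucosinolate list 11 higher and 0 lower.

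Of 54 abscisic acid and dehydration genes, among which MYB2 is best known, 4 were higher and 2 lower. For scale, the whole table lists 1271 genes, and 27443 nuclear protein-coding genes were read for the windows above. CYP707A4, an abscisic acid hydroxylase, measured 1.95, 1.45 and 4.52 FPKM in MYB2-OE, against 0.03, 0 and 0 FPKM in Col. LEA7, a late embryogenesis abundant protein, measured 13.9, 7.69 and 7.9 FPKM in MYB2-OE, against 2.99, 3.48 and 2.03 FPKM in Col. RAB18, a dehydrin marker of the hormone, measured 1.53, 2.25 and 1.43 FPKM in MYB2-OE, against 1.21, 0.49 and 0.6 FPKM in Col and stood at log2 0.87 without library 2. MYB102 overlapped Col and stood at log2 0.62 without MYB2-OE library 1. The cold and abscisic acid gene KIN1 was lower at 8.98, 25.1 and 5.58 FPKM in MYB2-OE, against 47.9, 57.9 and 33.2 FPKM in Col (log2 -1.80, and -2.65 without library 2), and the receptor gene PYL6 was lower at 5.37, 7.69 and 7.98 FPKM in MYB2-OE, against 17.42, 19.3 and 26.2 FPKM in Col.

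Hormone genes outside that pathway were mixed. Of 80 lateral root and auxin genes, 6 were higher and 4 lower, and leaving out library 2 took the 2-fold rises to 3, because LBD16 and LBD29 dropped out. WOX11, a homeobox regulator of root founder cells, measured 4.04, 3.22 and 4.42 FPKM in MYB2-OE, against 0.39, 0.22 and 0.35 FPKM in Col (log2 3.25, and 3.37 without library 2). YUC8, an auxin synthesis enzyme, measured 8.56, 6.46 and 9.68 FPKM in MYB2-OE, against 2.74, 2.74 and 2.52 FPKM in Col, and the abscission peptide gene IDA measured 1.5, 1.17 and 1.18 FPKM in MYB2-OE, against 0.11, 0.06 and 0.22 FPKM in Col. The 4 lower genes act in auxin movement or response. The carrier gene PIN5 measured 1.07, 3.26 and 0.94 FPKM in MYB2-OE, against 8.9, 6.59 and 8.6 FPKM in Col (log2 -2.13, and -2.88 without library 2), and the influx carrier gene LAX1 measured 6.49, 12.9 and 7.51 FPKM in MYB2-OE, against 19, 23.3 and 27.9 FPKM in Col. PIN6 was under 1 FPKM in every library, at 0.04, 0.65 and 0.02 FPKM in MYB2-OE, against 0.8, 0.73 and 0.79 FPKM in Col, and stood at log2 -2.75 without library 2 and -0.97 without MYB2-OE library 3. IAA3, an auxin response repressor, measured 5.52, 13.6 and 6.25 FPKM in MYB2-OE, against 16.9, 22.1 and 21 FPKM in Col. Of 66 cytokinin genes, 5 were higher and 3 lower. ARR16, a response regulator induced by cytokinin, measured 6.24, 4.75 and 6.35 FPKM in MYB2-OE, against 0.78, 1.13 and 0.81 FPKM in Col (log2 2.55, and 2.67 without library 2), and CKX5, a cytokinin oxidase, 7.85, 6.96 and 7.19 FPKM in MYB2-OE, against 3.14, 3.54 and 2.82 FPKM in Col. LOG1, which releases active cytokinin, was lower at 1.46, 6.4 and 1.47 FPKM in MYB2-OE, against 6.66, 8.1 and 10.2 FPKM in Col (log2 -1.39, and -2.43 without library 2). In the gibberellin, brassinosteroid and ethylene list of 59, 5 were higher and 3 lower. GA2OX6 and GA2OX4, which inactivate gibberellin, measured 37.5, 25.1 and 31.1 and 2.13, 1.78 and 1.87 FPKM in MYB2-OE, against 15.9, 14.1 and 15.7 and 0.35, 0.77 and 0.46 FPKM in Col. GA3OX2, which makes active gibberellin, was lower at 4.21, 5.33 and 4.11 FPKM in MYB2-OE, against 16, 14.7 and 12.7 FPKM in Col, while GA20OX1 of the step before was higher at 1.12, 1.55 and 1.99 FPKM in MYB2-OE, against 0.33, 0.43 and 0.61 FPKM in Col and GA2OX1 was lower at log2 -1.10. ACO4 and ACO1, which make ethylene, went opposite ways, at log2 1.04 and -1.05. Without MYB2-OE library 1, ACO4 and GA2OX6 stood at log2 0.98 and 0.88. GA2OX1 stood at -0.91 without MYB2-OE library 3 and ACO1 at -0.84 without Col library 3. Among 54 growth peptide genes, of which 43 were matched to a locus, PSK2 and IDL2 were higher, IDL2 at 0.22, 0.22 and 0.28 FPKM in MYB2-OE and at 0 in Col.

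Nutrient and transport genes formed small groups of 1 direction or of both. Nitrate reductase genes NIA1 and NIA2 measured 154, 67.7 and 87.8 and 191, 131 and 163 FPKM in MYB2-OE, against 34.4, 20.6 and 17.57 and 84, 71.9 and 67.6 FPKM in Col, and were 2 of the 3 higher genes of a nitrogen list of 51, in which the anion channel homologue SLAH1 was lower (12.9, 29.5 and 9.24 FPKM in MYB2-OE, against 48.1, 44.7 and 48.3 FPKM in Col, log2 -1.44, and -2.07 without library 2). All 4 listed genes of the 29-gene phosphate starvation list were higher. PAP17, a secreted acid phosphatase, measured 28.4, 26.2 and 31.8 FPKM in MYB2-OE, against 13.5, 12 and 12.8 FPKM in Col, and G3Pp1, a glycerol-3-phosphate transporter, 44, 32.7 and 50.3 FPKM in MYB2-OE, against 18.1, 17.42 and 15.8 FPKM in Col. Iron deficiency genes were mostly lower, with 6 lower and 2 higher of 43. IRT1, the main root iron importer, measured 89.3, 73.3 and 55.1 FPKM in MYB2-OE, against 151, 150.2 and 185 FPKM in Col. BHLH39 and BHLH101, regulators of iron uptake, measured 8.53, 8.16 and 6.5 and 1.57, 1.77 and 0.73 FPKM in MYB2-OE, against 11.4, 15.8 and 25.3 and 2.43, 4.02 and 5.53 FPKM in Col. The higher ones were ZIF1, a vacuolar transporter (28.9, 27.4 and 34.4 FPKM in MYB2-OE, against 12.3, 13.2 and 11.1 FPKM in Col), and AT1G76800, a homologue of vacuolar iron transporters (18.7, 12.2 and 15.8 FPKM in MYB2-OE, against 8.61, 7.27 and 6.9 FPKM in Col). In Col library 3 BHLH39 and BHLH101 were highest, and library 3 of the line was lowest for IRT1, BHLH39 and BHLH101, so the gap varied between libraries. BHLH39 stood at log2 -0.81 without Col library 3, IRT1 at -0.99 without MYB2-OE library 3, and NIA2 and AT1G76800 at 0.98 and 0.87 without MYB2-OE library 1.

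Amino acid and sugar transporters were split evenly, 5 higher and 5 lower of 73. The exporter gene UMAMIT17 measured 154, 131 and 160.1 FPKM in MYB2-OE, against 29.7, 27.1 and 27.1 FPKM in Col. UMAMIT29 measured 64.9, 47.4 and 65.9 FPKM in MYB2-OE, against 14.8, 14.6 and 12.7 FPKM in Col, and UMAMIT28 measured 32.7, 30.0 and 38.3 FPKM in MYB2-OE, against 15.9, 15.3 and 15.4 FPKM in Col. The groups did not overlap in any of these 3 genes. SWEET12, a sucrose exporter, measured 30.1, 40.6 and 43.7 FPKM in MYB2-OE, against 5.79, 8.36 and 12.9 FPKM in Col, and SUC1, a sucrose importer, was lower at 19.6, 51 and 22.2 FPKM in MYB2-OE, against 109, 103 and 89.4 FPKM in Col. The importer gene AAP6 measured 0.29, 4.26 and 0.34 FPKM in MYB2-OE, against 6.75, 6.21 and 4.02 FPKM in Col, so library 2 of the line overlapped Col, and its log2 fold of -1.74 became -3.79 without library 2. UMAMIT12 was lower at log2 -1.02. UMAMIT14 measured 1.24, 4.47 and 0.98 FPKM in MYB2-OE, against 7.27, 6.66 and 3.68 FPKM in Col, with library 2 of the line above Col library 3 (log2 -1.36, and -2.30 without library 2). Of 76 ion transport genes, 7 were higher and 3 lower. ALMT1, the malate channel of aluminium tolerance, measured 41, 17.78 and 21.3 FPKM in MYB2-OE, against 18.1, 13 and 8.34 FPKM in Col. The potassium channel SKOR, which loads the xylem, was lower at 2.44, 8.67 and 2.93 FPKM in MYB2-OE, against 10.2, 10.01 and 14 FPKM in Col (log2 -1.26, and -2.04 without library 2), and the zinc transporter ZIP1 was higher at 19.4, 17.84 and 21.9 FPKM in MYB2-OE, against 8.19, 9.24 and 6.73 FPKM in Col. Without MYB2-OE library 1, ALMT1, SKOR and UMAMIT12 stood at log2 0.57, -0.96 and -0.91.

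Cell wall loosening genes were mostly lower. Of 81 cell wall and separation genes, 3 were higher and 6 lower, where 52.4% of all listed genes were higher. Among the higher genes was CDEF1, high in library 2 alone, and 2 were at least 2-fold higher without that library. The expansin gene EXPB3 measured 11.2, 92.7 and 11.1 FPKM in MYB2-OE, against 246, 227 and 169 FPKM in Col (log2 -2.48, and -4.26 without library 2), and EXPA4 measured 40.4, 137 and 46.4 FPKM in MYB2-OE, against 245, 238 and 192 FPKM in Col (log2 -1.59, and -2.37 without library 2). The xyloglucan transferase gene XTH31 measured 38.8, 106 and 40.3 FPKM in MYB2-OE, against 292, 258 and 191 FPKM in Col (log2 -2.64 without library 2). Library 2 was the highest library of the line in all 3, at more than 2 times the values of its partners. EXLB1, an expansin-like gene, went the other way at 49.3, 33.6 and 53.2 FPKM in MYB2-OE, against 13.7, 11 and 7.49 FPKM in Col. Of 60 glutathione transferase and detoxification genes, 3 were higher and 4 lower, with GSTU4, HOL2 and GSTF11 higher and GSTF2, GSTU8 (100.3, 138 and 102 FPKM in MYB2-OE, against 228, 222 and 240.1 FPKM in Col), GSTU23 and GSTL1 lower. GSTU8 stood at log2 -0.94 without MYB2-OE library 1. A run of 5 glutaredoxin genes, AT4G15660, AT4G15670, AT4G15680, AT4G15690 and AT4G15700, was higher in every member. This run was grouped after its values were seen. AT4G15660 measured 1.97, 1.34 and 2.96 FPKM in MYB2-OE, against 0.06, 0.21 and 0.1 FPKM in Col and AT4G15690 measured 2.84, 2.06 and 4.35 FPKM in MYB2-OE, against 0.3, 0.46 and 0.22 FPKM in Col. They are similar neighbours that may share reads, so the fold of a single copy is uncertain, and all 5 stayed under 5 FPKM.

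Clock genes had 7 listed members. Of 17 genes that peak between dawn and day, 6 were higher and 0 lower, and of 12 that peak around dusk, 0 were higher and 1 lower, so the dusk list rests on a single gene. The direction had been seen in earlier results of these data and is not independent of the choice of lists. RVE8, an activator of evening genes, measured 50.1, 49.7 and 46 FPKM in MYB2-OE, against 22.7, 23.8 and 25.4 FPKM in Col, and AT3G54500, known as LNK2, its coactivator, measured 67.7, 76.3 and 66.7 FPKM in MYB2-OE, against 19.6, 28.8 and 29.5 FPKM in Col. ELF4, of the evening complex, was lower at 42.4, 33 and 40.0 FPKM in MYB2-OE, against 83.8, 79 and 125 FPKM in Col. The 3 MYB2-OE libraries were close together in RVE8 and LNK2, library 2 included, unlike in most genes above. RVE8 was at log2 1.02 and at 0.98 without Col library 1.

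Genes of the plastid genome were higher in these dark-grown roots, while the few listed nuclear photosynthesis genes were mostly lower. The table held 11 plastid genes and all were higher, with groups that did not overlap in any of them, beside 93.7% of all higher genes. RPL16, a plastid ribosomal protein gene, measured 43.6, 16.9 and 23.2 FPKM in MYB2-OE, against 4.76, 15.1 and 13.1 FPKM in Col, and RPOA, a subunit of the plastid-encoded polymerase, 7.88, 4.46 and 4.92 FPKM in MYB2-OE, against 1.46, 3.13 and 2.31 FPKM in Col. Library 1 of the line was the highest and library 1 of Col the lowest or tied for lowest in all 11. Libraries 2 and 3 of the line lay close together here, and in RPL16 library 2 at 16.9 FPKM was little above the highest Col library at 15.1 FPKM. Of 56 genes of the photosynthesis list, 1 was higher, LHCB2.1 (8.8, 9.27 and 13.8 FPKM in MYB2-OE, against 5.28, 5.23 and 4.11 FPKM in Col), and 5 were lower, all with group means under 4 FPKM. The groups overlapped in 4 of these 5. RBCS1B measured 0, 0.94 and 0.28 FPKM in MYB2-OE, against 2.72, 2.28 and 0.86 FPKM in Col (log2 -2.02, and -3.10 without library 2), and over all libraries 3 of the 5 reached a 2-fold fall, and 5 did so without library 2. RBCS copies are near-identical and may share reads, and LHCB2.1 stood at log2 0.88 without MYB2-OE library 3.

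The labelled tissue was checked by markers as far as the table allows, since it lists only genes called as different. Genes known from roots were present at high levels in both genotypes, with PYK10 the most abundant listed gene and IRT1 and the root hair factor LRL1 well measured. None of them is from the lists set as root markers (root hair, suberin and endodermis, xylem and vascular, meristem), which had few listed members. The root hair list of 23 had 1 higher and 0 lower member, ETC1. The list of 42 meristem and cell cycle genes had 1 higher member, AT1G07500 (18.3, 18.8 and 12.2 FPKM in MYB2-OE, against 7.35, 2.46 and 2.93 FPKM in Col), and 0 lower. The heat and chaperone list of 32 had 0 higher and 2 lower members, DREB2C and HSFA3, both under 2 FPKM. DREB2C stood at log2 -0.86 without Col library 3 and HSFA3 at -0.89 without Col library 1. The hypoxia list of 21 had 1 higher and 2 lower members. PDC2, pyruvate decarboxylase, measured 15.6, 14 and 16.1 FPKM in MYB2-OE, against 27.7, 26.9 and 39.2 FPKM in Col and stood at log2 -0.98 without library 2 and -0.84 without Col library 3, while AT3G10040 stood at log2 0.96 over all libraries and 1.07 without it. Genes outside the table have no value in this comparison, so a gene missing from a list's counts is not shown to be unchanged.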

How the data were processed

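RNA sequencing libraries from roots of MYB2-OE and Col seedlings (3 each, grouped by the genotype labels) were compared. The deposited table gives, per the file headers, FPKM per library and group. It also gives the authors' log2 fold per gene with a p-value and a Q-value, as deposited by the authors. Every listed gene had an absolute log2 above 1 and a Q under 0.001, so unlisted genes have no value and no other scaling could be tried. The build was TAIR10, per the submitters' processing notes. Names of aligner and counter were not given in the sources used here. Members and gene lists were chosen with earlier results of these data known.

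Folds were log2 ratios of group means with 0.1 FPKM added, in Python 3.11.15 with pandas 2.3.3. They carry no test of their own, and a 2-fold difference counts as log2 of 1. limma 3.58.1 in R 4.3.3, with an intensity trend, was run on log2(FPKM + 1) with Benjamini-Hochberg adjustment at 0.05. In simulated data with 1271 genes, limma recovered 97% of 100 changes of log2 1.5 and 100% of 100 changes of log2 2.5. The simulated spread of all libraries was taken from the Col libraries, and 1071 genes were left unchanged. The real MYB2-OE libraries correlated less well with each other, and nearly all listed genes differed. These rates therefore do not carry over to this comparison. Library positions used log2(FPKM + 1). Gene coordinates, names and sequences came from RefSeq's TAIR10.1 (1259 of 1271 genes matched), and the files carry no coordinates of their own.

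Named genes were MYB2 and LBD29, the 15 largest rises and falls by log2 fold of FPKM + 1 (with a symbol, at least 5 FPKM in the higher group and no overlap), the 6 of highest level per direction, up to 8 members of each of 27 lists, the 8 genes furthest above and the 8 furthest below in library 2, and 3 per transcription factor family. Another 8 groups, and other genes named beside them, were chosen after their values were seen. List sizes in the text count all entries, and not every entry was matched to a separate locus. Matched were 36 of 43 iron deficiency genes, 29 of 37 triterpene and sterol genes and 74 of 81 cell wall genes. For heat and chaperone genes it was 26 of 32. LBD16 entered the rises, as its lowest library lay above Col.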

Additional observations from a re-analysis of the deposited data

How the results depend on the processing

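Leaving out 1 library at a time gave 526 to 610 genes at least 2-fold higher and 459 to 570 at least 2-fold lower. Adding 1 FPKM in place of 0.1 cut these counts to 316 and 318, since this shrinks folds of low genes. Adding 0.01 FPKM, averaging log values and requiring 1 FPKM kept both counts within 1.5 times. Without MYB2-OE library 2, the 2-fold counts were 3 higher for lateral root and auxin genes (5 over all libraries), 1 higher and 1 lower for hypoxia genes (0 and 2 over all libraries) and 5 lower for photosynthesis genes (3 over all libraries). LBD29 ranged over log2 -0.60 to 4.22 when 1 library was left out and reversed without library 2, where its call rested. With limma, counts over 1 library left out were 571 to 631 higher and 498 to 562 lower. Correlations of deviations from the group mean were 0.019, 0.011 and 0.014 between same-numbered libraries of the 2 genotypes. Between differently numbered libraries they were -0.015 to -0.002. Taking deviations within each group ties these values to each other, so they do not settle whether the libraries were paired. With the replicate block limma gave 636 higher and 580 lower genes, against 630 and 576 without. Of 213 named genes and list members, 44 lost their 2-fold difference with 1 FPKM added. In the same set 31, 7 and 22 lost it without MYB2-OE library 1, 2 and 3, and 8, 9 and 16 without Col library 1, 2 and 3. Depth is unknown, which limits the genes under 1 FPKM most.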
